A study of Mus musculus with 9 samples.

Results

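Expression of 10 growth arrest genes was followed in mouse gastrocnemius, the large calf muscle, through hindlimb unloading and the return of load. The genes were Cdkn1a, Gadd45a, Gadd45b, Gadd45g, Btg2, Mdm2, Ccng1, Sesn1, Plk2 and Plk3, taken as a list of symbols. All 10 were matched in the count table of 55487 genes, and all 10 were among the 14851 genes with enough counts to be tested. Cdkn1a was chosen because it was higher after unloading in these same libraries, so its values are given as a description with no p-value, and counts of genes passing a test are over the other 9. Per the labels the mice were C57BL/6 (C57BL/6J in the study's text), wild-type and male, whereas the methods of the study give females for this procedure. An age is not given in the labels. Control libraries (n = 4) came from mice with normal cage ambulation, Unloading libraries (n = 2) from mice whose hindlimbs were lifted off the floor by the tail for 10 days, and Reloading libraries (n = 3) from mice taken 1 day after such an unloading period had ended. Each library is named below by its group and the replicate number of its label.

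Growth arrest genes of this kind act where a cell stops dividing or answers stress. The transcription factor p53, encoded by Trp53 in the mouse, is held low by the ubiquitin ligase Mdm2, and when it is released it binds paired decamers in DNA and switches on genes such as Cdkn1a. Cdkn1a encodes p21, which inhibits cyclin-dependent kinases. Muscle fibres have left the cell cycle, and in this tissue Cdkn1a and Gadd45a are best known as genes that respond to disuse and denervation.

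The libraries held 9252443 to 19612101 counts, which the count table's header sets as read pairs although the study describes single reads, so that 1 pair was worth 0.051 to 0.108 CPM (counts scaled to a total of 1000000). CPM values below were scaled with TMM factors, which were 0.928 to 0.96 in Control and Unloading and 1.106 to 1.131 in Reloading. The labels do not say that libraries came from separate animals, so the p-values measure the spread between these samples, which may in part be technical. Muscle fibre markers (Acta1, Ckm, Myh4, Myh1, Tnnt3 and Mb) were high in every library, at a summed 95480 to 148000 CPM. Control 2 and Reloading 1 stood apart in skin keratins, with summed keratinocyte markers at 306.9 and 135.8 CPM. Without both of these libraries, each of the 9 genes stayed on its side of the threshold in all 3 comparisons.

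Unloading moved few of these genes past the test. Of the 9 genes, Sesn1 rose and Ccng1 fell in Unloading against Control, and 7 did not pass edgeR's quasi-likelihood test with Benjamini-Hochberg adjustment at 0.05. Over all tested genes 4.40% were called higher and 5.50% lower in this comparison. With the return of load more of them moved. Against Unloading, Btg2, Plk2 and Plk3 rose and Gadd45b and Ccng1 fell, beside 18.5% of all tested genes called higher and 19.0% lower. Against Control, Btg2, Sesn1, Plk2 and Plk3 were higher in Reloading and Gadd45b, Mdm2 and Ccng1 were lower, beside 22.1% and 21.3% of all tested genes. Scaled by library totals alone, without TMM, 82.8% and 80.2% of all calls in these comparisons with Reloading were higher, in place of 49.3% and 50.9%, and Btg2, Plk2, Plk3, Gadd45b and Ccng1 kept their calls. The median log2 fold change of the 9 genes was -0.34 in Unloading against Control. It was 0.12 between Reloading and Unloading and 0.27 between Reloading and Control, where the medians over all tested genes were -0.004, 0.03 and 0.01. The 3 comparisons share libraries, so their counts are not separate evidence, and with 9 genes nothing particular to the list was read from them. Gadd45a and Gadd45g passed in no comparison as fitted here, and in some under other settings.

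**Figure D1:**
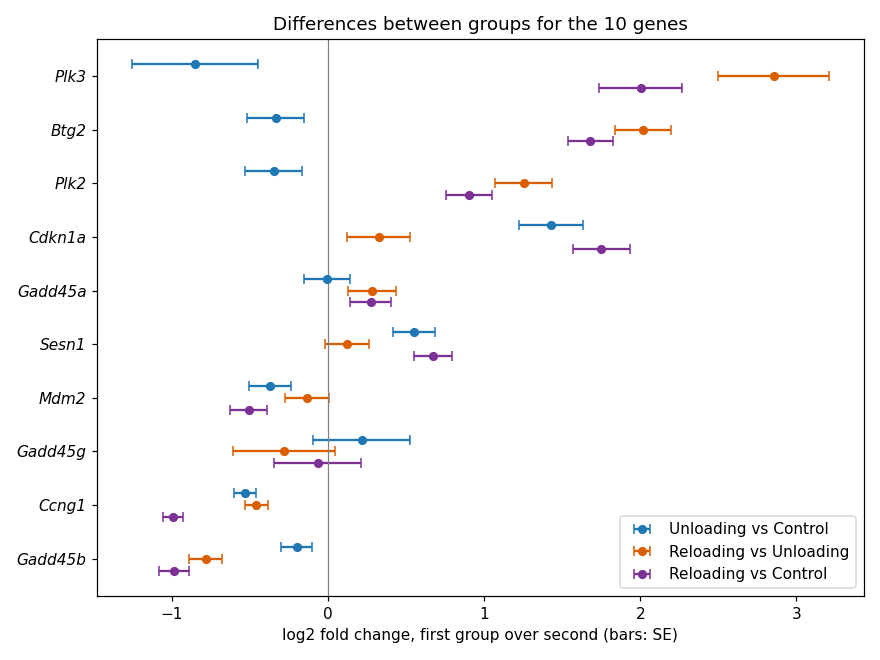
Log2 fold change of each of the 10 genes (x axis, first named group over second) in the 3 comparisons, with bars for 1 SE; Plk3, Btg2 and Plk2 lie furthest right for Reloading against Unloading at 2.85, 2.02 and 1.25, and Ccng1 lies left of 0 in all 3 comparisons. The values of Cdkn1a are a description, since it was chosen on them.

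Cdkn1a, on the plus strand of chromosome 17 (GRCm38, 29090976 to 29100727, ENSMUSG00000023067), is the gene on which the list was built. Its level was 6.65, 8.04, 6.65 and 12.8 CPM in Control 1 to 4, 26.4 and 19.9 CPM in Unloading 1 and 2, and 33.5, 25.5 and 27.4 CPM in Reloading 1 to 3. The highest Control library, Control 4, stayed below both Unloading libraries, while Unloading and Reloading overlapped. The group means were 8.53 ± 2.91 (SD, n = 4), 23.1 ± 4.57 (n = 2) and 28.8 ± 4.18 CPM (n = 3). The log2 difference of Unloading from Control was 1.43 ± 0.20 (SE), or 2.69-fold, that of Reloading from Control 1.75 ± 0.18, or 3.36-fold, and that of Reloading from Unloading 0.32 ± 0.20, with a 95% interval from -0.10 to 0.75. After 1 day of load the level was thus not below that of Unloading in its mean. Its exons share 273 bases with the antisense gene 1700023B13Rik, and since read pairs were counted without regard to strand these bases could be counted for neither or either gene. The antisense gene itself held 0 to 2 pairs per library.

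RefSeq lists 2 start sites for Cdkn1a in its GRCm38.p6 annotation. The 200 bases before the upstream start, chr17:29090779-29090978 on the plus strand, are shown because they are the only window among the 10 genes that held a pair of p53 decamers with no more than 13 bases between them. A decamer is here an exact match to RRRCWWGYYY (R is A or G, W is A or T, Y is C or T). The bases tgacatgttc that follow the second decamer directly differ from this pattern at the first base alone, so they were not counted. Capitals mark both decamers and the bases between them:
Cdkn1a: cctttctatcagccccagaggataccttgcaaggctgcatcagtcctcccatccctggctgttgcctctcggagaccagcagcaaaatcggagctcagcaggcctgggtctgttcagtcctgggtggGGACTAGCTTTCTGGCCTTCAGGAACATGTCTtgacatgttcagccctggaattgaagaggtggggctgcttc

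The decamers GGACTAGCTT and GAACATGTCT begin 73 and 51 bases before that start. Promoter windows in the RefSeq table run from 250 bases before to 50 bases after each start, and of 32851 such windows 24, or 0.0731%, held such a pair on either strand. The 10 genes have 12 windows, since Cdkn1a and Sesn1 each have 2 starts. At least 1 p53 decamer was present in 5 of these 12, against 8.36% of all windows: beside Cdkn1a these were Gadd45a (GGGCTAGCCC, 40 bases before the start), Mdm2 (GAACTTGCCT, 186 bases before), Ccng1 (GGGCAAGCCT, 185 bases before) and Sesn1 (AAGCTTGTTT, 173 bases before the second of its starts). Of these 5 genes, Ccng1 fell and Sesn1 rose in Unloading, Sesn1 by 0.55 on the log2 scale and by 0.28 without Unloading 1. A match is a description of the letters and no evidence of binding.

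The genes whose pattern over the 9 libraries lay nearest to that of Cdkn1a were Cdc7, Klf6, Per1, Gm17501 and Rundc3a. Nearness was the root mean square difference of log2 CPM centred per gene, which was 0.286 for Cdc7, 0.291 for Klf6, 0.319 for Per1, 0.323 for Gm17501 and 0.326 for Rundc3a, against a median of 0.906 over all other tested genes. Klf6, a zinc-finger transcription factor, averaged 24.3, 49.5 and 59.3 CPM in Control, Unloading and Reloading. Per1, a repressor of the circadian clock, averaged 67.7, 133 and 156 CPM. Cdc7 (a kinase of replication origins) and Rundc3a lay below or near 1 CPM in every group, where single pairs move the value. As these genes were picked for their likeness to a gene picked on its own values, their levels are a description.

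**Figure D2:**
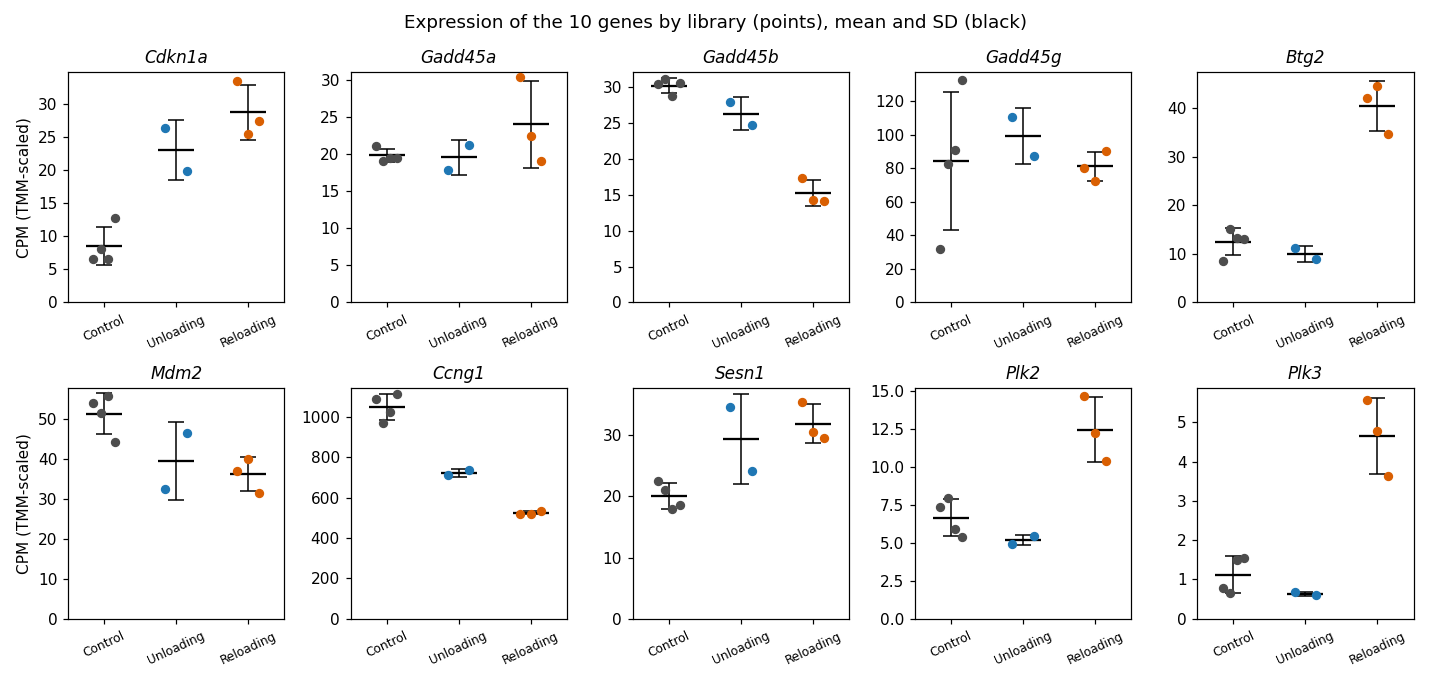
TMM-scaled CPM of the 10 genes in each library (points), with the group mean (long bar) and SD (short bars) for Control (n = 4), Unloading (n = 2) and Reloading (n = 3), each y axis starting at 0. All 3 Reloading libraries lie above every other library for Btg2, Plk2 and Plk3 and below every other library for Gadd45b and Ccng1.

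The Gadd45 proteins are small acidic stress proteins that bind the kinase MTK1 (Map3k4), PCNA and p21. Of the 3 genes, only Gadd45b passed in any comparison as fitted here. Gadd45a (chromosome 6, 67035096 to 67037457, minus strand, ENSMUSG00000036390) stood at 21.1, 19.1, 19.5 and 19.5 CPM in Control, 17.9 and 21.2 CPM in Unloading, and 30.4, 22.4 and 19.1 CPM in Reloading. The groups overlapped in each comparison, and only Reloading 1 stood clearly above the rest. The log2 difference of Unloading from Control was -0.01 ± 0.15 (95% interval -0.33 to 0.31, edgeR quasi-likelihood adjusted p = 0.978) and that of Reloading from Unloading 0.28 ± 0.15 (adjusted p = 0.164). Reloading against Control gave 0.27 ± 0.13 (adjusted p = 0.105). These 2 differences passed when Reloading 3 was left out, at 0.43 (edgeR adjusted p = 0.031) and 0.42 (adjusted p = 0.0153). The latter also passed with no low-count filter (0.28, adjusted p = 0.0374), where its SE was 0.10 in place of 0.13. The gene shares 337 exonic bases with E230016M11Rik on the other strand, which held 4 to 18 pairs per library.

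Gadd45b (chromosome 10, 80930073 to 80932204, plus strand, ENSMUSG00000015312) was lower in its group mean at each step. It was measured at 30.5, 31.2, 28.8 and 30.5 CPM in Control, 27.9 and 24.8 CPM in Unloading, and 17.3, 14.3 and 14.2 CPM in Reloading. No groups overlapped. The step from Control to Unloading, -0.20 ± 0.10 on the log2 scale, did not pass (edgeR adjusted p = 0.216). The gene fell by 0.79 ± 0.11 from Unloading to Reloading (adjusted p = 5.4e-05) and was 1.98-fold lower in Reloading than in Control (log2 fold change -0.99 ± 0.09, adjusted p = 1.02e-06).

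Gadd45g (chromosome 13, 51846678 to 51848468, plus strand, ENSMUSG00000021453) varied more within a group than between groups. Control 1 to 4 gave 32.0, 82.4, 91.1 and 132.6 CPM, a spread that took in both Unloading libraries (110.9 and 87.3 CPM) and all Reloading libraries (80.5, 72.8 and 90.3 CPM). The 95% interval of the log2 difference was -0.45 to 0.88 for Unloading against Control and -0.66 to 0.53 for Reloading against Control, and neither passed. Between Reloading and Unloading the log2 difference was -0.28 ± 0.33 (edgeR adjusted p = 0.525). There the gene was called lower with no low-count filter (-0.31, edgeR adjusted p = 0.00728). The difference barely moved in that fit, while its SE was 0.09 in place of 0.33. It was also called lower with a replicate block, the number in the sample description as a further term of the fit (-0.87, adjusted p = 0.0335). Gadd45b and Gadd45g each held the letters TATAAA, a core promoter box, 46 and 27 bases before the start, as did 13.6% of all windows.

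Btg2, Plk2 and Plk3 did not pass in Unloading against Control and rose with load. Btg2, an antiproliferative protein of the BTG/Tob family that recruits the deadenylation machinery to mRNA, lies on the minus strand of chromosome 1 (134075170 to 134079120, ENSMUSG00000020423). It stood at 8.57, 15.1, 13.2 and 13.04 CPM in Control and 11.2 and 8.91 CPM in Unloading, and at 42.2, 44.6 and 34.8 CPM in Reloading. Control and Unloading overlapped (log2 difference -0.34 ± 0.18, edgeR adjusted p = 0.255), and every Reloading library was above all others. The rise from Unloading was 4.05-fold (log2 2.02 ± 0.18, adjusted p = 1.25e-06), and the level stood 1.68 ± 0.14 above Control on the log2 scale (adjusted p = 3.51e-07).

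Plk2 and Plk3 encode polo-like kinases that respond to stress and mitogens. Plk2 (chromosome 13, 110395046 to 110400844, plus strand, ENSMUSG00000021701) was at 7.33, 7.96, 5.93 and 5.41 CPM in Control, 4.94 and 5.41 CPM in Unloading and 14.7, 12.2 and 10.4 CPM in Reloading. The Reloading libraries did not overlap either other group. The rise from Unloading was 2.38-fold (log2 1.25 ± 0.18, edgeR adjusted p = 9.97e-05), and the log2 difference from Control was 0.90 ± 0.15 (adjusted p = 0.000188).

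Plk3 (chromosome 4, 117128655 to 117133963, minus strand, ENSMUSG00000028680) was the lowest of the 10 and moved furthest. Its counts were 7, 8, 21 and 18 read pairs in Control, 9 and 11 in Unloading and 69, 66 and 55 in Reloading. In CPM these came to 0.663 to 1.54 in Control, 0.601 and 0.674 in Unloading and 5.56, 4.77 and 3.64 in Reloading. The lowest Reloading library was above the highest of the others, while Unloading overlapped Control (log2 difference -0.85 ± 0.40, edgeR adjusted p = 0.199). Reloading was 7.23-fold above Unloading (log2 2.85 ± 0.35, adjusted p = 2.34e-05) and 4.00-fold above Control (log2 2.00 ± 0.27, adjusted p = 2.61e-05). Its exons share 84 bases with Dynlt4 on the other strand, which held 0 to 2 pairs.

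Of these 3 genes, Btg2 and Plk2 shared the letters TGACGTCA, the cAMP response element (CRE), within the window searched, and their sequences are shown for that reason. These exact letters were found for no other of the 10 genes and in 1.79% of all windows. Near matches to the element were not searched. The stretches are the 200 bases before the RefSeq start in GRCm38.p6, chr1:134079156-134079355 on the minus strand for Btg2 and chr13:110394844-110395043 on the plus strand for Plk2, with the element in capitals:
Btg2: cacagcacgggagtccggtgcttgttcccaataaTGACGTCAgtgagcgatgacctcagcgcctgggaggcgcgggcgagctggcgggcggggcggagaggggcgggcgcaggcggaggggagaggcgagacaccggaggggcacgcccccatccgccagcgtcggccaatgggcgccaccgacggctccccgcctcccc
Plk2: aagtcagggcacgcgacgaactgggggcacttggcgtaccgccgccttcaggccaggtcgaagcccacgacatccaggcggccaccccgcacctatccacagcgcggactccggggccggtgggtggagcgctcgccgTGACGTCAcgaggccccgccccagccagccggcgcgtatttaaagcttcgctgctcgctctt

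The element began 166 bases before the start of Btg2 and 62 bases before that of Plk2. The AP-1 letters TGANTCA (7.81% of all windows) and the SRF CArG box (1.63%), both searched on either strand, were found in 0 of the 10 genes' windows, which says only that these letters are not in the bases searched.

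Some lists of cell markers moved in the same libraries as these 3 genes, and others were mixed or did not. Summed macrophage markers were 68.8 to 80.1 CPM in Control, 72.8 to 73.1 CPM in Unloading and 143 to 161 CPM in Reloading, with 7 of 8 called higher in Reloading than in Unloading and none at 0 in any library. Endothelial markers were 118 to 142.5, 121 to 122 and 215 to 265 CPM (4 of 5 called higher), and smooth muscle markers 41.4 to 47.2, 42.1 to 45.6 and 97.3 to 113 CPM (4 of 4). Summed fibre markers were 134800 to 148000 CPM in Control, 133500 to 140400 CPM in Unloading and 95480 to 106900 CPM in Reloading (5 of 6 called lower). Of 4 fibroblast markers 1 was called higher and 2 lower, and of 4 satellite cell markers 1 was higher and 0 lower. Of the 2 tested neutrophil markers and the 8 keratinocyte markers, 0 were called. Over all tested genes 18.5% were called higher and 19.0% lower in Reloading against Unloading. The part of these cell types in the changes of the growth arrest genes was not tested. In whole muscle, fewer cells of a type and less RNA per cell cannot be told apart.

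Mdm2, Ccng1 and Sesn1 are all known targets of p53, and the 3 differed in direction. Ccng1, which encodes cyclin G1, lies on the minus strand of chromosome 11 (40748552 to 40755311, ENSMUSG00000020326) and was by far the most abundant of the list. It measured 1087, 969.4, 1023 and 1113 CPM in Control, 710.4 and 737.7 CPM in Unloading and 521.3, 520.8 and 536.0 CPM in Reloading. The groups were separate at each step and the spread within each was small. Ccng1 fell by 0.53 ± 0.07 on the log2 scale from Control to Unloading (edgeR adjusted p = 0.000768) and by 0.46 ± 0.08 from Unloading to Reloading (adjusted p = 0.00025). In Reloading it was 1.99-fold below Control (log2 fold change -0.99 ± 0.07, adjusted p = 2.7e-08). It passed in all 3 comparisons under all alternatives tried.

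Mdm2 (chromosome 10, 117688875 to 117710758, minus strand, ENSMUSG00000020184), the ubiquitin ligase of p53 and itself a p53 target, was at 54.0, 51.6, 55.8 and 44.4 CPM in Control, 32.6 and 46.4 CPM in Unloading and 37.0, 40.0 and 31.6 CPM in Reloading. Unloading 2 reached into the Control range and Unloading 1 did not. The log2 difference of Unloading from Control, -0.37 ± 0.13, missed the threshold (edgeR adjusted p = 0.0878). It was -0.66 without Unloading 2 and -0.14 without Unloading 1, each with a single Unloading library left. Reloading was lower than Control (log2 fold change -0.51 ± 0.12, adjusted p = 0.00274, no overlap) and did not pass against Unloading (-0.14 ± 0.14, adjusted p = 0.469).

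Sesn1 (chromosome 10, 41809935 to 41908424, plus strand, ENSMUSG00000038332) encodes sestrin 1, a stress protein that restrains mTORC1. Its level was 22.6, 21.0, 17.9 and 18.6 CPM in Control, 34.6 and 24.2 CPM in Unloading and 35.5, 30.5 and 29.5 CPM in Reloading. Both Unloading libraries and all Reloading libraries were above every Control library, and the loaded and unloaded groups overlapped. Sesn1 rose 1.47-fold in Unloading (log2 0.55 ± 0.14, edgeR adjusted p = 0.0195). The rise was smaller without Unloading 1, at a log2 difference of 0.28 with a single Unloading library left. Sesn1 stood 0.67 ± 0.12 above Control on the log2 scale in Reloading (adjusted p = 0.000377), with 0.12 ± 0.14 between Reloading and Unloading (adjusted p = 0.522).

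Levels were compared between genes per kilobase of exon (RPKM). In Control, Ccng1 was at 298 ± 18.4 RPKM (SD, n = 4), followed by Gadd45g at 72.1 ± 35.2 and Gadd45b at 19.0 ± 0.639. Gadd45a (11.2) and Mdm2 (10.1) came next and overlapped over libraries, as did Sesn1 (5.03) with Btg2 (4.55) and Btg2 with Cdkn1a (2.40), above Plk2 at 1.48 and Plk3 at 0.444. Ccng1 and Gadd45g were highest and Plk2 and Plk3 lowest in all groups. Cdkn1a passed Btg2 in Unloading, at 6.51 against 3.67 RPKM. In Reloading, Btg2 at 14.8 RPKM came next after Gadd45g, in a run of overlapping genes with Gadd45a (13.6), Gadd45b (9.61), Cdkn1a (8.11) and Sesn1 (7.996), and Mdm2 followed at 7.12.

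**Figure D3:**
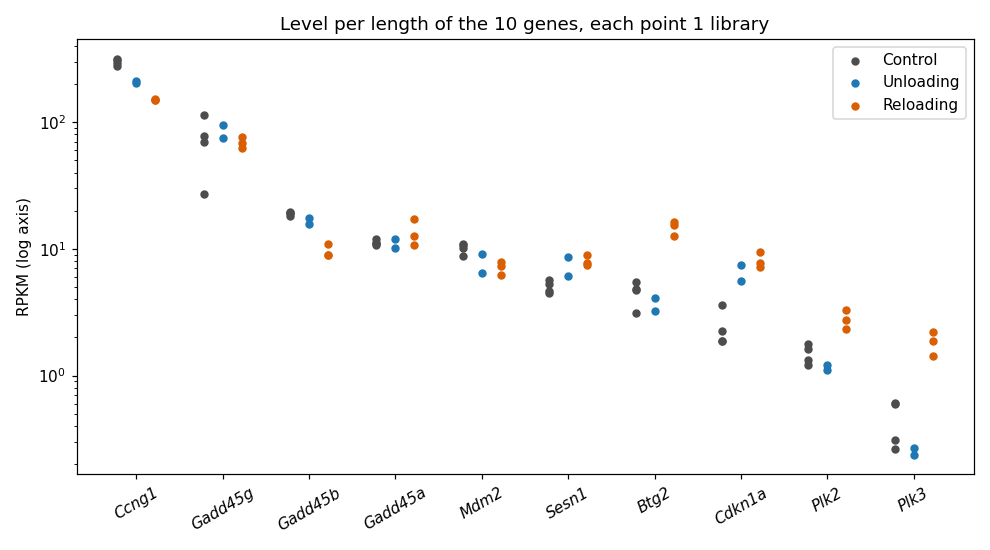
Level per kilobase of exon (RPKM, log axis) of the 10 genes, ordered from left by their Control mean, with 1 point per library. Ccng1 is highest throughout, from a mean of 298 RPKM in Control to 149.8 in Reloading, and Plk3 is lowest, at 0.444 in Control, 0.252 in Unloading and 1.84 in Reloading.

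The genes that control p53 were described from a list of 13, of which 10 were tested. Trp73 (4 read pairs over all 9 libraries), Cdkn2a (3 pairs) and Chek1 (46 pairs) were too low. In Unloading 2 were called higher and 0 lower against Control (edgeR, with 3 higher and 0 lower at an unadjusted p under 0.05, and DESeq2 calling 2 and 0), beside 4.40% and 5.50% of all tested genes, with a list median of 0.16. Those 2 were Trp63, encoding the p53 relative p63 (log2 0.72 ± 0.17, edgeR adjusted p = 0.0171), and Mdm4, an Mdm2 relative that restrains p53 (0.42 ± 0.10, adjusted p = 0.0177). Without Unloading 1, which left a single Unloading library, these differences were 0.67 and 0.25. Trp63 stood at 0.77 without Unloading 2. With a replicate block by title numbers Mdm4 did not pass (edgeR adjusted p = 0.056). Both genes came down again in Reloading, by 0.64 and 0.54 on the log2 scale (edgeR adjusted p = 0.0106 and 0.00111). For Trp63 the latter difference was -0.60 without Unloading 1, and it did not pass with libraries scaled by their totals alone (-0.40, adjusted p = 0.0821).

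Trp53 itself was at 9.59, 12.6, 12.7 and 12.1 CPM in Control, 11.5 and 11.7 CPM in Unloading and 20.8, 21.6 and 17.9 CPM in Reloading. Its level in Unloading lay inside the Control range (log2 difference -0.03 ± 0.13, edgeR adjusted p = 0.928), and it was higher in Reloading than in Unloading by 0.79 ± 0.13 (adjusted p = 0.000288) and than in Control by 0.76 ± 0.11 (adjusted p = 5.39e-05). Trp53bp1, a DNA damage adaptor, was higher in Reloading as well (0.78 and 0.65 against Unloading and Control, adjusted p = 0.000155 and 9.01e-05). Atm, the kinase that signals DNA breaks to p53, was lower (-0.70 and -0.80, adjusted p = 0.00385 and 0.000367). Of the 10 regulators, Reloading gave 2 higher and 3 lower against Unloading, and 2 higher and 1 lower against Control, beside 18.5% and 19.0%, and 22.1% and 21.3%, of all tested genes. Scaled by library totals alone, 5 were higher than Control. Under that scaling 7512 of all 14851 tested genes were called in this comparison, 80.2% of them higher.

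Among 29 other p53 target genes, 23 were tested, and in Unloading 2 were called higher and 1 lower, beside 4.40% and 5.50% of all tested genes and a list median of -0.02 on the log2 scale. Trp53inp1, a stress protein that acts in autophagy and p53 signalling, went up and came back. It was at 13.2, 12.1, 13.5 and 15.9 CPM in Control, 43.0 and 29.6 CPM in Unloading and 10.96, 12.4 and 12.6 CPM in Reloading. Unloading stood apart from both other groups, at a log2 difference of 1.40 ± 0.14 from Control (edgeR adjusted p = 7.51e-05), and the gene fell by 1.59 ± 0.15 in Reloading (adjusted p = 1.94e-06). Eda2r, a receptor of the TNF receptor superfamily, had 22.1 to 26.5 CPM in Control, 39.4 and 40.7 CPM in Unloading and 45.4 to 53.1 CPM in Reloading, with no overlap. Its log2 difference from Control was 0.685 ± 0.09 in Unloading (adjusted p = 0.00057) and 0.97 ± 0.08 in Reloading (adjusted p = 3.13e-07), so that its groups stood in the same order as those of Cdkn1a. The gene called lower in Unloading was Polk, a translesion polymerase (-0.55 ± 0.16, edgeR adjusted p = 0.0458). It did not pass when any of Control 1, Control 3, Control 4 or Reloading 2 was left out. With a single Unloading library the difference of Polk was -0.465 without Unloading 1 and -0.647 without Unloading 2.

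In Reloading the same 23 targets gave 7 higher and 5 lower against Unloading (median 0.35) and 9 higher and 3 lower against Control (median 0.22). Over all tested genes these shares were 18.5% and 19.0%, and 22.1% and 21.3%. The count of 9 dropped to 4 without Control 2 and Reloading 1. Over all settings tried, calls over all tested genes against Control ranged from 5082 to 7512, beside 6456 in the main fit. The named genes against Unloading were Tnfrsf10b, a death receptor (log2 1.41), Zmat3, an RNA-binding zinc-finger protein (0.67), and Phlda3, an inhibitor of Akt (0.53), all higher, with Trp53inp1, Rrm2b, a ribonucleotide reductase subunit (-0.79), and Fas, another death receptor (-0.55), lower. Without Unloading 1, which left a single Unloading library, Tnfrsf10b stood at 0.88, Zmat3 at 0.45 and Fas at -0.47, and Fas at -0.65 without Unloading 2. The call of Zmat3 was lost without Reloading 2. That of Fas was lost without Reloading 1 or Reloading 2 and when libraries were scaled by their totals alone. Against Control, Eda2r, Tnfrsf10b (0.85, adjusted p = 0.0474) and Apaf1, the core of the apoptosome (0.72, adjusted p = 0.0109), were higher by edgeR's test and Rrm2b (-0.80, adjusted p = 5.78e-05), Polk (-0.79, adjusted p = 0.000504) and Ei24 (-0.42, adjusted p = 0.000235) were lower. Apaf1 did not pass without Reloading 1, and Tnfrsf10b did not pass without any single Control library or without Reloading 1 or Reloading 2. The p53 targets Perp and Sfn, also expressed in skin, reached 11.3 and 4.15 CPM in Control 2 and 5.80 and 3.79 CPM in Reloading 1, with 0.973 to 1.89 and 1.00 to 1.95 CPM elsewhere. Pmaip1, Gdf15, Psrc1, Gtse1, Rprm and Ckap2 held 4 to 22 read pairs in all and were not tested.

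**Figure D4:**
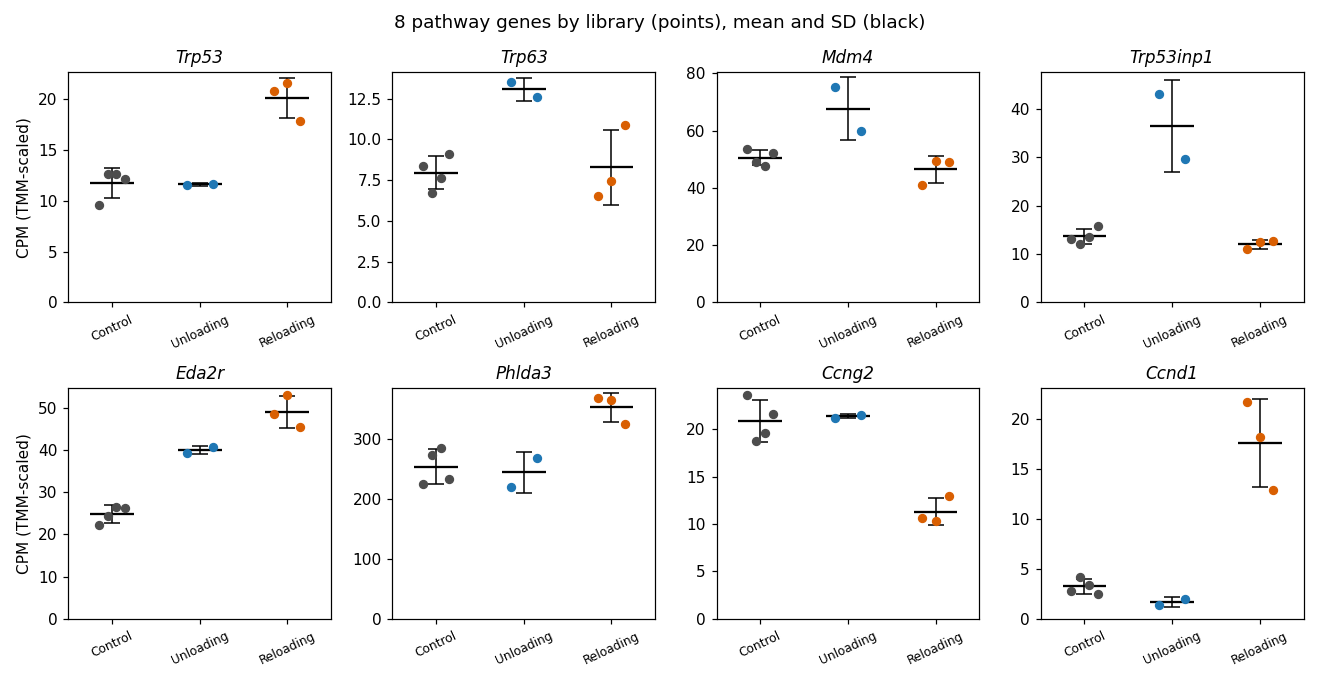
TMM-scaled CPM of 8 genes of the p53 pathway, cyclin G and cyclin D families in each library (points), with the group mean (long bar) and SD (short bars), each y axis starting at 0. Trp53inp1 is high in the 2 Unloading libraries alone (43.0 and 29.6 CPM), Trp53 and Ccnd1 are high in the 3 Reloading libraries, and Eda2r is lowest in Control and highest in Reloading.

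Of 15 family relatives of the 10 genes, 12 were tested. In Unloading 4 were called higher and 0 lower against Control (edgeR, with 4 and 1 at an unadjusted p under 0.05, and 4 and 0 by DESeq2), beside 4.40% and 5.50% of all tested genes. These were the p21 relatives Cdkn1c (0.55 ± 0.12, edgeR adjusted p = 0.00912) and Cdkn1b, the cyclin Ccni (0.41 ± 0.11, adjusted p = 0.0316, lost without Control 2 or Control 3) and Mdm4. Leaving out Unloading 1 left a single Unloading library, and the differences were then 0.44 for Cdkn1c, 0.24 for Ccni and 0.25 for Mdm4. Against Unloading, 0 were called higher and 6 lower in Reloading (edgeR, with 0 and 6 at an unadjusted p under 0.05, and 0 and 5 by DESeq2), beside 18.5% and 19.0% of all tested genes and at a median of -0.245 against 0.03 over all tested genes. Sesn3, the sestrin relative of Sesn1, fell by 0.94 ± 0.12 (adjusted p = 2.19e-05), from 25.7 and 23.2 CPM in Unloading to 11.1, 13.02 and 13.8 CPM. Ccng2, the other cyclin G, fell by 0.91 ± 0.13 (adjusted p = 6.08e-05), from 21.3 and 21.5 CPM to 10.6, 10.3 and 12.98 CPM. Neither passed in Unloading, where both lay within or near their Control ranges of 20.7 to 24.4 and 18.7 to 23.7 CPM. Against Control, 1 relative was higher (Tob2, 0.43, adjusted p = 0.0485, lost with DESeq2's size factors and without any of Control 1, 2 and 3, Unloading 1 and 2, and Reloading 2 and 3) and 5 were lower (22.1% and 21.3% of all tested genes), among them Ccng2 (-0.875), Sesn3 (-0.84) and Ccni (-0.37), the last of which did not pass without Reloading 1. With libraries scaled by their totals alone these counts became 5 higher and 2 lower, beside 7512 calls over all tested genes, 80.2% of them higher. Btg4, Plk1 and Plk5 held 10, 18 and 51 pairs in all and were not tested.

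Cell cycle genes linked to p21 were given by a list of 18, with 15 tested. In Unloading 0 of these were called higher and 0 lower against Control by edgeR, beside 4.40% and 5.50% of all tested genes. At an unadjusted p under 0.05 there were 1 higher and 3 lower, and DESeq2 called 0 higher and 1 lower. In Reloading 8 were higher and 3 lower than in Unloading, and 5 higher and 2 lower than in Control, with medians of 0.49 and 0.54, beside 18.5% and 19.0%, and 22.1% and 21.3%, of all tested genes. The 5 higher than Control became 11 with libraries scaled by their totals alone. Under that scaling 7512 of all 14851 tested genes were called in Reloading against Control, 80.2% of them higher. Ccnd1, encoding cyclin D1, was at 2.82, 4.23, 3.43 and 2.49 CPM in Control, 1.35 and 2.02 CPM in Unloading and 21.8, 18.2 and 12.9 CPM in Reloading. Its rise from Unloading was 3.34 ± 0.27 on the log2 scale (edgeR adjusted p = 4.04e-07), where Plk3, the furthest of the 10 genes, gave 2.85. Cdk6 (1.12), the partner kinase of D cyclins, and Ccnd2 (1.04) were also higher than in Unloading (adjusted p = 0.00894 and 0.000477), and Pcna, the replication clamp bound by p21 and the Gadd45 proteins, was higher by 0.49 against Unloading and by 0.54 against Control (adjusted p = 0.00118 and 9.73e-05). Ccne2 (-0.70), encoding cyclin E2, and the pocket protein genes Rbl2 (-0.585) and Rb1 (-0.35) were lower than in Unloading (adjusted p = 0.0176, 0.000318 and 0.0418). Against Control, Ccnd1 (2.42 ± 0.20, adjusted p = 2.44e-07), Ccnd2 (0.66) and Cdk6 (0.64, adjusted p = 0.0446) were higher and Ccne2 (-0.80) and Rbl2 (-0.38) lower by edgeR's test. With a single Unloading library, the differences from it were 0.95 for Cdk6 and -0.48 for Ccne2 without Unloading 2, and -0.22 for Rb1 without Unloading 1. Against Unloading, Ccne2 did not pass without Reloading 1 or Reloading 2. Nor did Rb1 when any single Reloading library was left out or with either replicate block (edgeR adjusted p = 0.0757 and 0.231). With library totals only, Ccne2 (-0.45, adjusted p = 0.0934) and Rb1 (-0.10, adjusted p = 0.563) did not pass against Unloading, nor did Rbl2 against Control (-0.14, adjusted p = 0.194). Against Control, Cdk6 was called only with Control 1, 2 and 4 and Reloading 1 and 2 and both Unloading libraries in the fit. The cyclin and kinase genes Ccnb1, Cdk1 and Ccne1 held 11, 18 and 27 pairs over all libraries and were not tested.

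Of 6 listed partners of the Gadd45 proteins 4 were tested. In Reloading 1 was called higher and 0 lower against Unloading, beside 18.5% and 19.0% of all tested genes. Against Control 1 was higher and 1 lower, beside 22.1% and 21.3%. With libraries scaled by their totals alone 3 were higher in each, where 82.8% and 80.2% of all calls were higher. Pcna, named above, was the partner called higher in Reloading in both comparisons. Gadd45gip1, a mitochondrial protein named for its binding to the Gadd45 family, was lower than in Control (-0.41 ± 0.11, edgeR adjusted p = 0.00827), a call lost under scaling by library totals. Map3k4 and Mapk14, the kinases of the Gadd45 stress pathway, passed in no comparison.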

How the data were processed

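Polyadenylated RNA of 9 gastrocnemius samples was sequenced. The authors aligned reads with STAR 2.7.3a to GRCm38.p6 and counted pairs per gene, unstranded, with featureCounts 2.0.3 on Ensembl release 102. The deposited counts are raw, with each gene's exon length. The authors' DESeq2 tables hold their own fold changes and p-values, which were not used; only the pairing of gene IDs with symbols was taken from them.

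The tests used edgeR 4.0.16 under R 4.3.3. Genes passed filterByExpr (minimum count 10, minimum total 15), which left 14851 of 34376 genes with any count. All 9 libraries entered a single TMM-scaled quasi-likelihood fit with group as the only term, and each of the 3 comparisons was tested two-sided with Benjamini-Hochberg adjustment over all tested genes at 0.05. Standard errors came from the F statistic, and 95% intervals from the t distribution. The procedure was tested on simulated data. Log2 CPM took a prior count of 2. DESeq2 1.42.0, other scalings, filters, sample sets and replicate blocks were the alternatives. No pair of libraries of a group was a duplicate by a chi-square comparison of counts.

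The 10 genes, the pathway lists and the markers were chosen with earlier results of these data known. The text names all 10 genes and, from each pathway list and comparison, up to 3 genes called in each direction with the largest log2 fold change at a mean of at least 1 CPM; Trp53, Perp, Sfn, Cdkn1b, Eda2r in Reloading and genes that were too low or did not pass are named beyond that rule. Promoter sequences are RefSeq's, on GRCm38.p6; all 10 genes matched.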

Additional observations from a re-analysis of the deposited data

How the results depend on the processing

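The depth limits the low genes (Plk3, with 7 to 69 read pairs per library), and 2 Unloading libraries limit each comparison with that group. Over the alternatives tried, Btg2, Plk2, Plk3, Gadd45b and Ccng1 kept their calls in both Reloading comparisons, and so did Sesn1 against Control. Leaving out 1 library at a time, the genes called in Unloading against Control ranged from 121 (without Unloading 1) to 1518, with 949 without Control 3, beside 1470 with all libraries. Over the same omissions the number of the 9 genes called higher ranged from 0 (without Unloading 1, when Sesn1 was lost) to 1, and the number called lower from 1 to 2 (without Unloading 2, when Mdm2 was added). Without a low-count filter 2 were called lower. Mdm2 was added there at -0.34 with an SE of 0.10, in place of -0.37 with an SE of 0.13.

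The numbers in the sample titles and in the sample descriptions differ for Reloading. Samples of the same title number correlated in their deviations at -0.201 to 0.075 over 7 pairs, and those of the same description number at 0.017 to 0.361 over 6 pairs, 3 of them over 0.1. The pair at 0.361 was Control 2 and Reloading 1, which also stood apart in skin keratins. Deviations of the 2 Unloading libraries from their mean mirror each other, so their correlations are not separate. With this limit, 7 of 9 libraries correlated best with their own description number. The labels do not say what either number stands for, and whether the description number marks a shared batch was not tested. The main fit had group as its only term, and both numbers were tried as replicate blocks. A replicate block by title numbers gave 1042, 5108 and 5705 genes called in Unloading against Control, Reloading against Unloading and Reloading against Control, and 2 of the 9 genes lower in Unloading. A replicate block by description numbers gave 1479, 4902 and 6632, and 3 of the 9 lower in Unloading, adding Mdm2 (adjusted p = 0.034 by edgeR) and Plk2 (-0.535, adjusted p = 0.0386). Against Unloading this replicate block gave 4 of the 9 higher in Reloading, adding Sesn1 (0.398, adjusted p = 0.0213), and 3 lower, adding Gadd45g (-0.871, adjusted p = 0.0335).

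The differences that changed sign did not pass where their sign was changed. Over the omissions of 1 library, the log2 difference between Reloading and Unloading ranged from -0.367 (without Unloading 1) to 0.143 (without Unloading 2) for Mdm2 and from -0.13 (without Unloading 2) to 0.388 (without Unloading 1) for Sesn1. For Gadd45g it ranged from -0.328 (without Control 1) to 0.228 (without Control 4) in Reloading against Control, with 0.001 without Reloading 2, and from -0.045 (without Control 1) to 0.512 (without Control 4) in Unloading against Control. For Gadd45a in Unloading against Control it ranged from -0.144 (without Unloading 2) to 0.105 (without Unloading 1), with 0.019 without Control 1 and 0.028 without a filter. Library totals only gave 0.115 for Mdm2 between Reloading and Unloading and 0.177 for Gadd45g between Reloading and Control, and the replicate block by title numbers gave 0.283 for the latter. Scaling by library totals alone moved the median of all tested genes from 0.03 to 0.27 for Reloading against Unloading and from 0.01 to 0.25 against Control, and the share of calls that were higher from 49.3% and 50.9% to 82.8% and 80.2%. Under it Mdm2 was no longer lower than Control in Reloading (-0.27, adjusted p = 0.0774 by edgeR) and Gadd45a was higher than Unloading (0.53, adjusted p = 0.0132) and Control (0.51, adjusted p = 0.00469), with the lists of p53 targets and cell cycle genes at 11 higher and 2 lower against Unloading and at 11 higher against Control. Over all 14851 tested genes this scaling gave 6340 calls against Unloading and 7512 against Control. The cause of the shift was not tested.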
